A study of Mus musculus with 16 samples.

Results

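The genes described here are 36 genes of glucose use and of the response to low oxygen, measured in blood and lung neutrophils of wild-type (WT) and αD knockout (KO) mice. They comprise 14 glycolytic enzymes, 5 genes of glucose and lactate transport and of phosphofructokinase-2, 2 of the oxidative pentose phosphate path, 4 of glycogen, Hif1a, and 10 targets of hypoxia-inducible factor (HIF) outside glycolysis. All 36 symbols matched 1 Ensembl gene each among the 49315 genes of the count files (GRCm38), by name and not by any measured value. Adm, which encodes adrenomedullin, was the only one close to absent, with 157 reads in total over 24 libraries and at most 1.08 CPM (counts scaled to the size of the library).

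The study asked how αDβ2 (CD11d/CD18), a β2 integrin of leukocytes, affects sepsis. Blood or lungs came from male mice aged 8 to 12 weeks, either untreated (the baseline) or 12 hours after cecal ligation and puncture (CLP), which causes polymicrobial abdominal sepsis, and cells positive for Ly6G, CD11b and CD45.2 were sorted from them as neutrophils. Genotype (WT or αD KO), tissue and time gave 8 groups of 3 libraries each. Whether libraries or samples came from separate mice was not given, so the tests measure the spread between libraries, which may be technical. Each group had libraries named here 1a and 1b (2 count files of its sample 1) and 2, so that its 3 libraries come from 2 samples. If 1a and 1b were preparations of 1 mouse, the p-values are too small. With these 2 files summed, leaving 2 samples a group, edgeR called 13 of 35 genes in WT blood (15.9% of all genes), 7 of 36 in WT lung (12.3%) and 6 of 35 in αD KO blood (3.84%) between times, by the thresholds given below. In sorted bulk RNA, a change in the mix of cells passing the gate and a change within each cell cannot be told apart.

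Glycolysis splits glucose to pyruvate in the cytosol, and lactate dehydrogenase regenerates the NAD+ that it needs. Mature neutrophils hold few mitochondria and depend largely on this path, store glycogen as a reserve of glucose, and use the pentose phosphate path to make NADPH for the oxidative burst. HIF-1α, encoded by Hif1a, is degraded when oxygen is plentiful, after hydroxylation by the prolyl hydroxylases Egln1 to Egln3. Stabilised HIF-1α induces most glycolytic enzymes as well as genes outside glycolysis such as Bnip3, Pdk1, Egln3 and Ndrg1.

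HIF binds DNA at a short core, so the 250 bases before the first listed start of each gene (RefSeq, GRCm38.p6) were searched for ACGTG and GCGTG on both strands, where the palindrome CACGTG counts on each strand. Of the 36 genes, 32 had an entry, and Slc2a3, Bnip3l, Ero1l and Ndrg1 had none. Several windows overlapped exons of their own gene as annotated for the counts, so they are not wholly upstream sequence. The shared bases were all 250 for G6pdx, 208 for Pkm, 193 for Aldoa, 148 for Pfkfb3, 138 for Tpi1 and 124 for Pfkfb4. Other windows shared at most 70, and all windows were searched whole. The core letters were present in 24 of the 32 windows (75.0%), in 9 of 14 glycolytic enzymes and in 6 of 7 HIF targets, against 38.6% of the 27025 genes with a window. Printed below are 3 enzyme genes and 2 HIF targets that moved in opposite directions after CLP, with the core letters in capitals, chosen after their values were seen. The Bnip3 window is shown without its last 13 bases, which are exonic, as 237 bases.
Ldha, chr7:46845554-46845803, strand plus: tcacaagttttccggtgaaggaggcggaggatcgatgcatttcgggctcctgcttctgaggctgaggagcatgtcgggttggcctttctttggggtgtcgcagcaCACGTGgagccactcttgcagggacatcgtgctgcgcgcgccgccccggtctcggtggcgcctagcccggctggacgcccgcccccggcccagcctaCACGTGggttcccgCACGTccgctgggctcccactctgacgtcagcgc
Pgk1, chrX:106186850-106187099, strand plus: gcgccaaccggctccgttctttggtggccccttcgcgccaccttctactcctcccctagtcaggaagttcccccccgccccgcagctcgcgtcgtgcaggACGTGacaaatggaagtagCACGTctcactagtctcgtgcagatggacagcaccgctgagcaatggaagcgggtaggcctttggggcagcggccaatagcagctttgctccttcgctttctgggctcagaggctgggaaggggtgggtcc
Hk1, chr10:62379909-62380158, strand minus: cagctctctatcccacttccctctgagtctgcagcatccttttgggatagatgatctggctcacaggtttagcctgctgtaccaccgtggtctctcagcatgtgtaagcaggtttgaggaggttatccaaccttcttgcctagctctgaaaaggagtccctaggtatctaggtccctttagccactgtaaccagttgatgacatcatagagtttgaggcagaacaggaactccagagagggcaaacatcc
Bnip3, chr7:138909520-138909756, strand minus: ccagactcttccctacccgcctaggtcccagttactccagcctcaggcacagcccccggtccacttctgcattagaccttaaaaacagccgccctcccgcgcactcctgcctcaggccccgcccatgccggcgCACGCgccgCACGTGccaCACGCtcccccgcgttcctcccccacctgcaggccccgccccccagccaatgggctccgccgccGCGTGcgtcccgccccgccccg
Egln3, chr12:54203875-54204124, strand minus: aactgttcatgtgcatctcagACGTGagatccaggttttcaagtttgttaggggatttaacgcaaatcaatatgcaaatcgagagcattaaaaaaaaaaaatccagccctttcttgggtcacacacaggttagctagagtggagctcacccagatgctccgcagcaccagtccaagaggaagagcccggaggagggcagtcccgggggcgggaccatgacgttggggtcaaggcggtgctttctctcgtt
Ldha and Bnip3 held 5 matches each, Pgk1 held 2, Egln3 held 1 and Hk1 held none. Among the genes that passed the test described below and had a window, 7 of 10 that rose and 3 of 3 that fell held a core in it. The 7 include G6pdx and Pfkfb3, whose windows hold exonic bases. Ndrg1 also fell but had no window. A match describes the letters alone and is not a measured binding site.

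Libraries held 5753476 to 29984954 counts. The 1b libraries were the shallower files, with 5753476 to 17976890 counts, and had counts in 29162 to 38844 genes, against 17132 to 32666 in 1a and 19769 to 28608 in 2. All 8 neutrophil markers had counts in every library, and S100a8 alone reached at least 8914 CPM. T and NK cell markers summed to 7.62 to 326 CPM and erythroid markers to 27.4 to 9089 CPM over the 24 libraries. Itgad, the targeted gene, was higher in the libraries labelled αD KO (12.5 to 102 CPM) than in those labelled WT (0.0583 to 3.67 CPM). Counts per gene cannot show whether that RNA encodes αD, and the genotype names below are those of the labels. Several lung libraries stood apart from their group. On the axis from the WT lung baseline (0) to WT lung 12 hours (1), drawn through 1334 called genes outside the 36, αD KO lung baseline library 2 stood at 1.03, the αD KO lung 12 hours libraries 1a and 2 at 0.0995 and 0.187, and WT lung 12 hours library 1b at 0.661. The other lung libraries were at -0.0409 to 0.153 at the baseline and 0.826 to 1.21 at 12 hours. Library 1a of the αD KO lung baseline, not apart on this axis, had a mitochondrial share of 0.940% (at most 0.303% in the others) and 1161 CPM of lung structural markers (58.9 to 402 CPM in the other lung libraries), and it enters every comparison that uses the αD KO lung baseline.

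In blood 12 hours post CLP, 5 of 14 glycolytic enzymes rose in WT and 4 of 14 in αD KO, while 4 of 9 tested HIF targets outside glycolysis fell in WT and 2 of 9 in αD KO. The other members of both lists did not pass the test. A gene was called changed at an adjusted p under 0.05 and a log2 fold change (log2FC) over 1 or under -1 (edgeR quasi-likelihood test, Benjamini-Hochberg adjustment over all genes tested). In WT blood neutrophils 12 of 35 tested genes were called, against 13.5% of all genes. Of these, 8 were higher (7.75% of all genes were) and 4 were lower (5.75% of all genes were). In αD KO blood neutrophils 9 of 35 were called, against 8.75% of all genes, with 7 higher (3.75% of all genes) and 2 lower (4.99% of all genes). Gpi1, Gapdh, Pgam1, G6pdx, Hif1a, Bnip3 and Pdk1 were called in both genotypes, with the same sign. With files 1a and 1b summed, Pdk1 was called in neither genotype, and Gapdh and Pgam1 were not called in αD KO blood. Groups that did not overlap between times were common, with 11 of 35 genes wholly higher and 3 wholly lower in WT blood, against 22.1% and 12.7% of all genes. The counts in αD KO blood were 12 and 7, against 17.7% and 14.5%, and those in WT lung 11 and 5, against 12.2% and 16.3%.

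**Figure D1:**
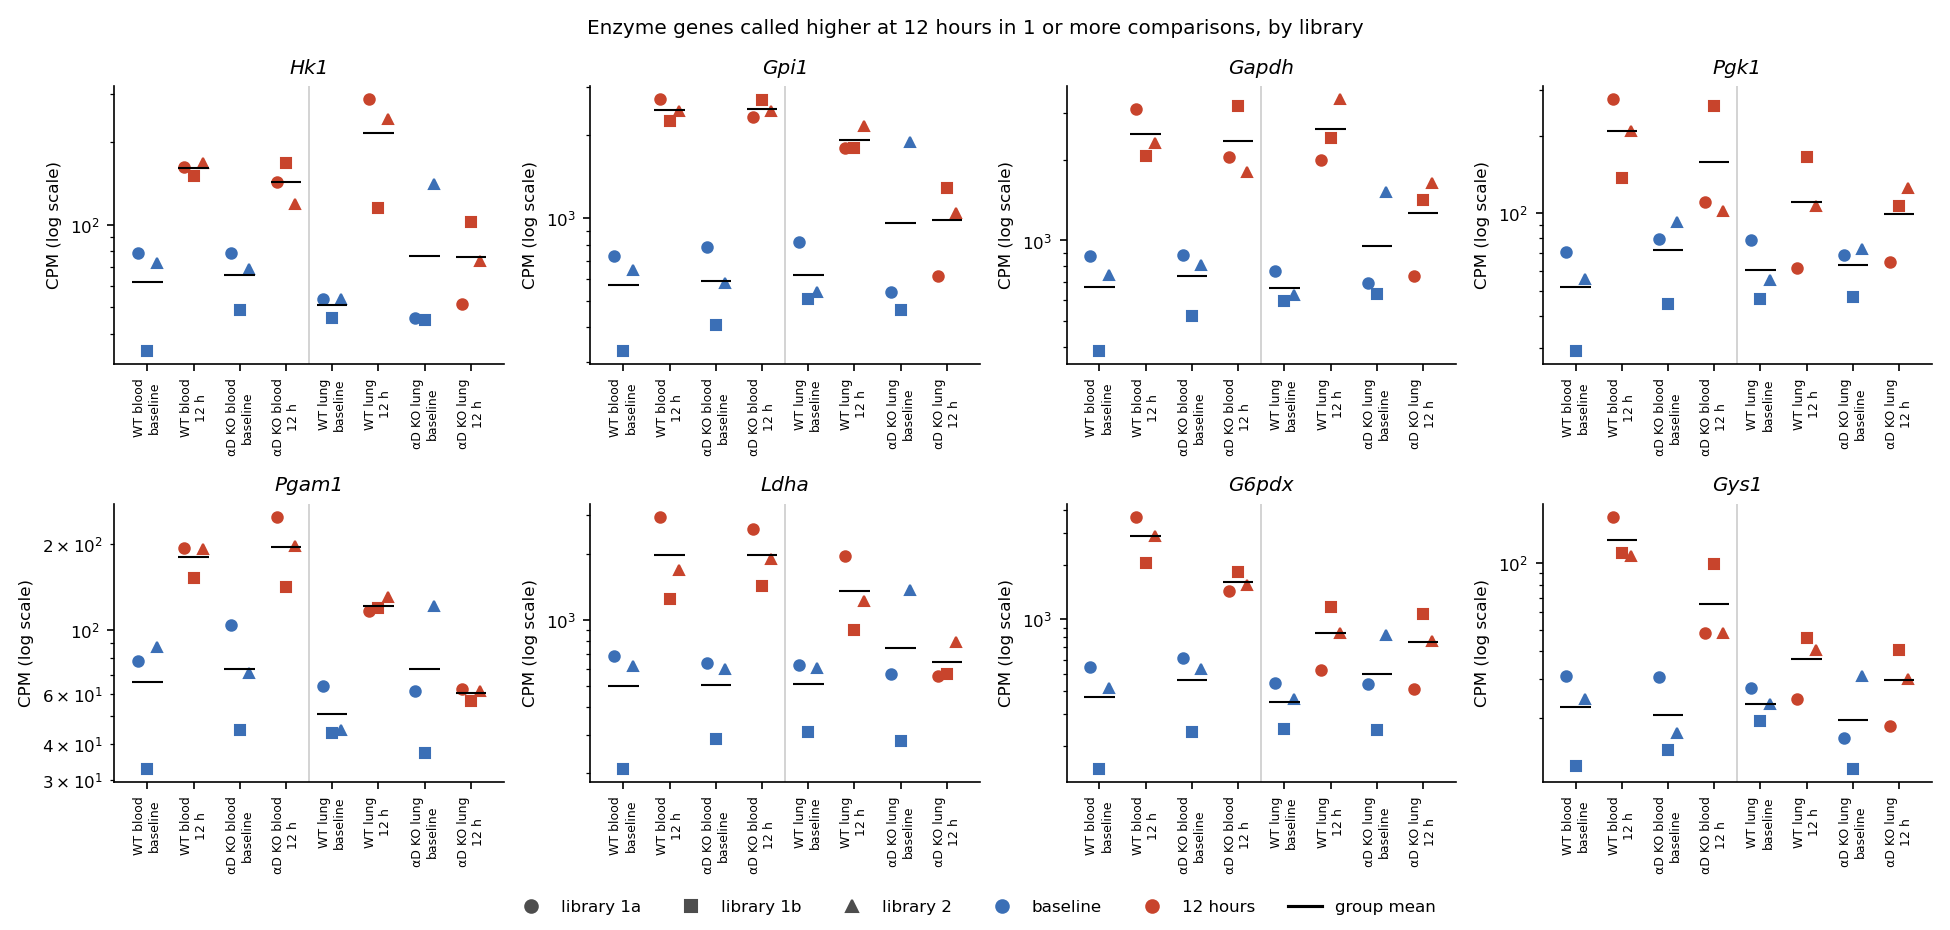
CPM (log axis) of 8 enzyme genes in each of 24 libraries, by genotype, tissue and time. Symbols mark libraries 1a, 1b and 2, blue is the baseline, red is 12 hours after CLP, and the black bar is the group mean. In blood, the Gpi1 values at 12 hours (2246 to 2719 CPM) all lay above those at the baseline (327 to 783 CPM).

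Gpi1 encodes glucose-6-phosphate isomerase, the second step of glycolysis, and lies at chr7:34201330-34230336 (GRCm38). It gave 730, 327 and 649 CPM in WT blood libraries 1a, 1b and 2 at the baseline and 2719, 2246 and 2447 CPM at 12 hours. The αD KO blood values were 783, 408 and 578 CPM and then 2336, 2690 and 2448 CPM. No library of one time overlapped the other time. The log2FC was 1.95 ± 0.38 (SE) in WT (adjusted p = 0.0177) and 1.90 ± 0.30 in αD KO (adjusted p = 0.0107).

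Gapdh, the glyceraldehyde-3-phosphate dehydrogenase, gave 874, 385 and 743 CPM in WT blood at the baseline and 3091, 2076 and 2310 CPM at 12 hours. Gapdh in αD KO blood went from 884, 523 and 808 CPM to 2058, 3175 and 1807 CPM. Both groups at 12 hours lay wholly above the baseline, with a log2FC of 1.72 ± 0.39 in WT (adjusted p = 0.027) and 1.5 ± 0.35 in αD KO (adjusted p = 0.0387). Pgam1, the phosphoglycerate mutase, gave 77.9, 32.7 and 87.3 CPM in WT blood and then 194, 152 and 193 CPM. Pgam1 in αD KO blood gave 105, 45.0 and 70.9 CPM and then 250, 141 and 196 CPM. These values did not overlap between times either, and the log2FC was 1.28 ± 0.34 in WT (adjusted p = 0.0439) and 1.22 ± 0.31 in αD KO (adjusted p = 0.0495).

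Pgk1 and Ldha had groups that did not overlap in either genotype, but in edgeR on the 2 groups each was called in 1 genotype. Pgk1, the phosphoglycerate kinase that yields the first ATP of the path, gave 71.0, 29.2 and 56.0 CPM in WT blood at the baseline and 278, 137 and 209 CPM at 12 hours. Pgk1 in αD KO blood gave 79.6, 44.6 and 92.8 CPM and then 111, 260 and 102 CPM. The log2FC of Pgk1 was 1.80 ± 0.35 in WT (adjusted p = 0.0177) and 0.99 ± 0.45 in αD KO (adjusted p = 0.198). Ldha, the lactate dehydrogenase A subunit, gave 683, 209 and 614 CPM in WT blood at the baseline and 2964, 1250 and 1694 CPM at 12 hours. Ldha in αD KO blood gave 633, 287 and 597 CPM and then 2598, 1422 and 1894 CPM. Its log2FC was nearly equal, 1.79 ± 0.49 in WT (adjusted p = 0.0507) and 1.77 ± 0.34 in αD KO (adjusted p = 0.02). DESeq2 called Ldha in both genotypes (adjusted p = 0.000538 in WT and 0.000134 in αD KO), and in WT blood edgeR called it with RLE scaling, with summed files and with the replicate block. For neither gene did the change itself differ between genotypes in the test of that difference, given further on.

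Hk1, a hexokinase, gave 78.6, 34.5 and 72.7 CPM in WT blood and then 163, 151 and 168 CPM (log2FC 1.21 ± 0.31, adjusted p = 0.0408). Hk1 in αD KO blood gave 78.6, 49.0 and 69.0 CPM and then 144, 168 and 119 CPM, with no overlap but a log2FC of 0.94 ± 0.28 (adjusted p = 0.0718). The other 8 glycolytic enzymes (Hk2, Hk3, Pfkl, Pfkp, Aldoa, Tpi1, Eno1 and Pkm) were called in neither genotype in blood, with log2FC of -0.44 to 1.11 in WT and -1.44 to 0.55 in αD KO. Of these, Pfkl, a phosphofructokinase subunit, was called higher in WT blood with the replicate block, with summed files and with libraries 1a and 2 alone (log2FC 1.04 to 1.17 with the first and last). Of the 14 enzymes 11 had a log2FC above 0 in WT blood, and called and uncalled enzymes were not tested against each other. Aldoa, the aldolase, gave 1552, 346 and 996 CPM and then 1083, 396 and 1048 CPM in WT blood. Over the 14 enzymes 5 rose and none fell in WT blood, where 7.75% of all genes rose and 5.75% fell. In αD KO blood 4 rose and none fell, where 3.75% and 4.99% of all genes did. The median log2FC of the enzymes was 0.78 in WT and 0.42 in αD KO, against -0.15 and -0.14 over all genes tested. Over 13 alternatives, those without 1 library included, the enzyme median ran from 0.49 to 1.24 in WT and from 0.04 to 0.62 in αD KO.

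G6pdx had the largest increase of the 36 genes in WT blood. It encodes glucose-6-phosphate dehydrogenase, which commits glucose to the pentose phosphate path, and lies at chrX:74409483-74429194 (GRCm38). It gave 549, 149 and 416 CPM in WT blood at the baseline and 3702, 2046 and 2901 CPM at 12 hours (log2FC 2.78 ± 0.50, adjusted p = 0.0133). G6pdx in αD KO blood gave 615, 240 and 534 CPM and then 1444, 1836 and 1554 CPM (log2FC 1.64 ± 0.35, adjusted p = 0.0287). Pgd, which follows in the same path, gave 693, 333 and 601 CPM in WT blood and then 823, 594 and 993 CPM, with overlapping groups (log2FC 0.37 ± 0.35, adjusted p = 0.516). Per exonic length, G6pdx had the highest mean of the 36 genes in WT blood at 12 hours, at 936 ± 269 CPM per kilobase of exon (RPKM; SD over 3 libraries from 2 samples), up from 120 ± 66.1 RPKM. At 12 hours the spread of G6pdx overlapped that of Pkm (635 ± 172 RPKM), Gapdh (603 ± 129 RPKM) and Ldha (595 ± 269 RPKM). At the baseline the order began with Pkm (478 ± 308 RPKM), Pygl (289 ± 112 RPKM) and Aldoa (257 ± 160 RPKM), which did not differ beyond their spread.

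Among the glycogen genes, Gys1, the glycogen synthase, gave 30.9, 12.1 and 24.5 CPM in WT blood at the baseline and 163, 112 and 108 CPM at 12 hours (log2FC 2.32 ± 0.35, adjusted p = 0.0073). Gys1 in αD KO blood gave 30.8, 14.4 and 17.1 CPM and then 48.3, 98.8 and 48.6 CPM, again without overlap but not called (log2FC 1.5 ± 0.43, adjusted p = 0.0661). Pygl, the liver-type glycogen phosphorylase that releases glucose units, gave 1438, 623 and 1260 CPM in WT blood and then 2386, 2024 and 2173 CPM. Its groups did not overlap, but the test was not passed (log2FC 0.82 ± 0.38, adjusted p = 0.202). Gbe1, the branching enzyme, and Ugp2, which makes UDP-glucose, were not called, with log2FC of -0.11 ± 0.40 and -0.01 ± 0.39 in WT blood.

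Hif1a itself rose in blood of both genotypes. It gave 84.3, 37.1 and 87.1 CPM in WT blood at the baseline and 286, 186 and 228 CPM at 12 hours (log2FC 1.57 ± 0.33, adjusted p = 0.0225). Hif1a in αD KO blood gave 82.8, 57.7 and 94.9 CPM and then 498, 169 and 384 CPM (log2FC 1.92 ± 0.37, adjusted p = 0.0215). RNA levels do not show how much HIF-1α protein was present. Pfkfb3, whose product makes fructose 2,6-bisphosphate, an activator of phosphofructokinase-1, gave 43.6, 38.3 and 33 CPM in αD KO blood at the baseline and 288, 143 and 274 CPM at 12 hours (log2FC 2.36 ± 0.32, adjusted p = 0.00667). In WT blood it gave 41.6, 18.8 and 69.1 CPM and then 110, 90.5 and 249 CPM, a separation that the main test did not call (log2FC 1.61 ± 0.49, adjusted p = 0.0682). There DESeq2 called Pfkfb3, as did edgeR with the replicate block and with libraries 1a and 2 alone. It was not called with RLE scaling, no filter, all 8 groups in 1 fit or summed files.

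**Figure D2:**
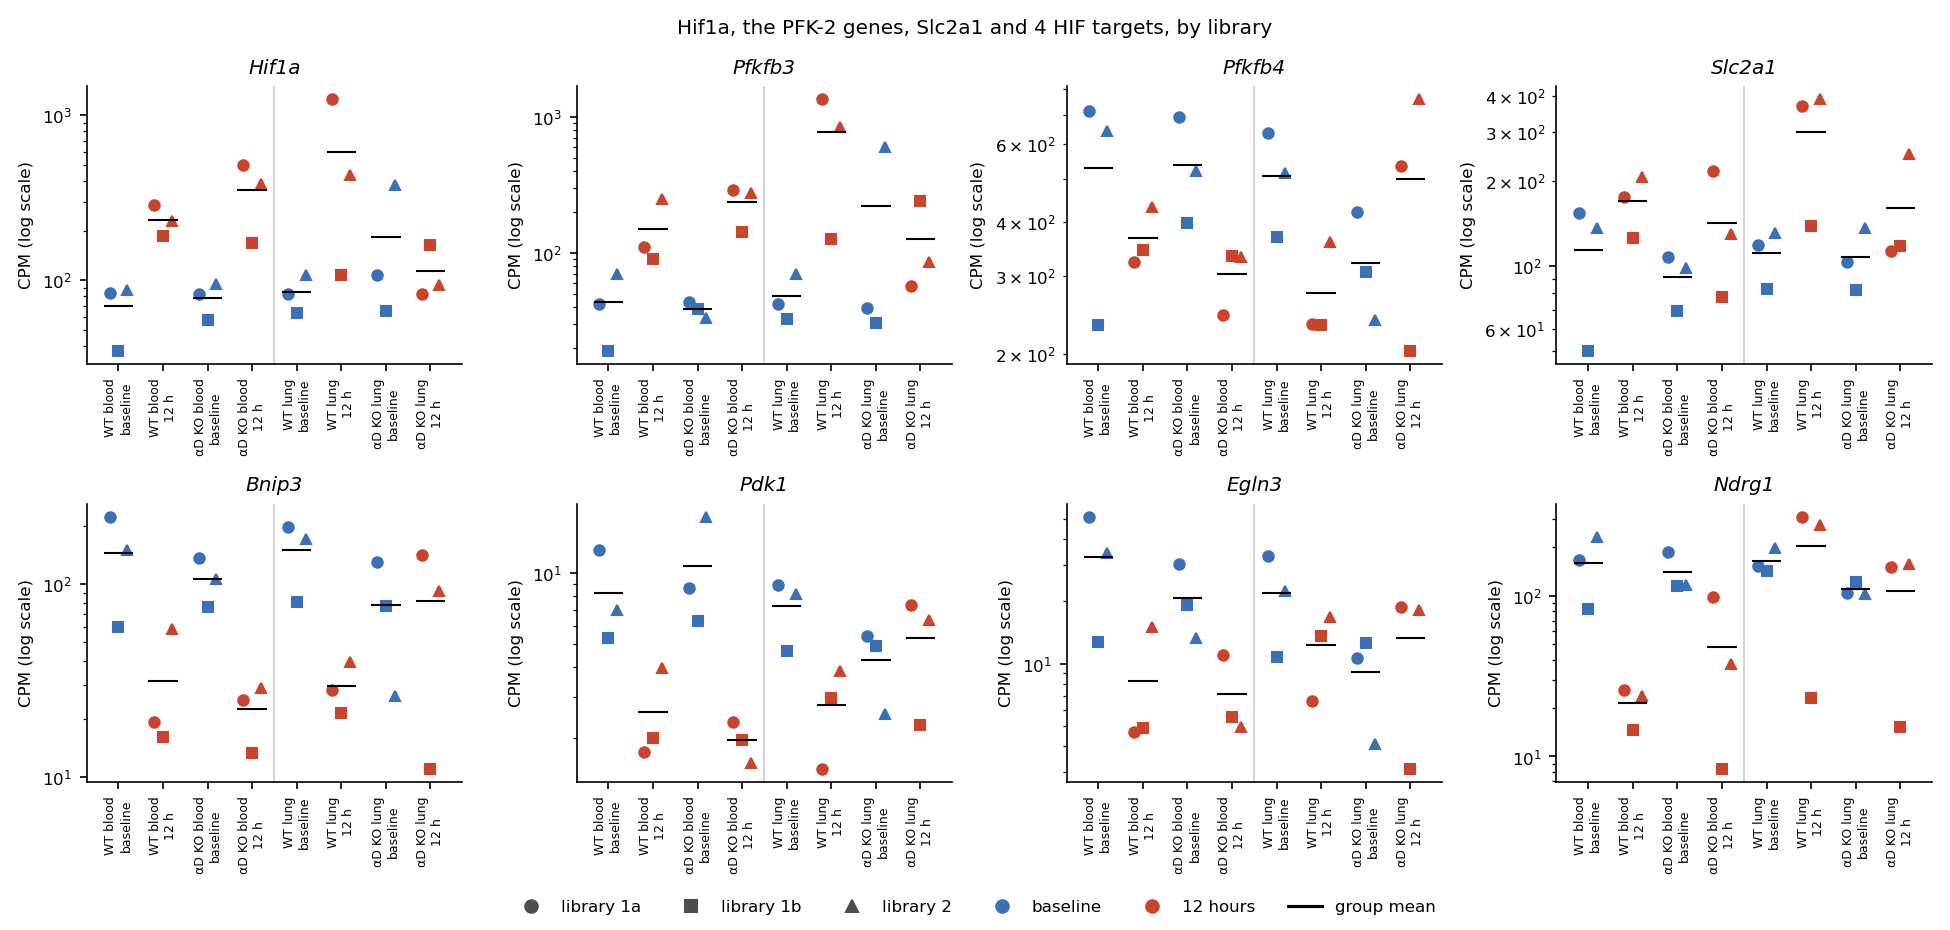
CPM (log axis) of Hif1a, Pfkfb3, Pfkfb4, Slc2a1 and 4 HIF targets outside glycolysis in each of 24 libraries. Symbols mark libraries 1a, 1b and 2, blue is the baseline, red is 12 hours after CLP, and the black bar is the group mean. In WT blood, Hif1a at 12 hours (186 to 286 CPM) lay above the baseline (37.1 to 87.1 CPM), while Ndrg1 at 12 hours (14.6 to 26.0 CPM) lay below it (82.4 to 232 CPM).

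The HIF targets outside glycolysis that passed the test were all lower at 12 hours. Ndrg1 (chr15:66929321-66969640), a gene induced by hypoxia and by differentiation, gave 168, 82.4 and 232 CPM in WT blood at the baseline and 26.0, 14.6 and 23.9 CPM at 12 hours (log2FC -3.09 ± 0.37, adjusted p = 0.00373). Ndrg1 in αD KO blood gave 187, 115 and 117 CPM and then 98.3, 8.33 and 37.5 CPM, lower in 3 of 3 libraries but not called (log2FC -1.81 ± 0.69, adjusted p = 0.136). Bnip3 (chr7:138890836-138909519), whose product marks mitochondria for removal, gave 225, 59.8 and 150 CPM in WT blood at the baseline and 19.3, 16.1 and 58.7 CPM at 12 hours. Bnip3 in αD KO blood gave 137, 76.6 and 106 CPM and then 25.0, 13.3 and 28.9 CPM. All 6 Bnip3 values at 12 hours lay below all 6 at the baseline, with a log2FC of -2.41 ± 0.59 in WT (adjusted p = 0.034) and -2.47 ± 0.32 in αD KO (adjusted p = 0.00545).

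Pdk1, a kinase that shuts pyruvate dehydrogenase and so keeps pyruvate from the mitochondria, was low throughout. It gave 12.5, 5.34 and 6.95 CPM in WT blood and then 1.75, 2.01 and 3.97 CPM (log2FC -1.88 ± 0.51, adjusted p = 0.047). This WT call was lost with summed files and with the replicate block. Pdk1 in αD KO blood gave 8.67, 6.28 and 17.4 CPM and then 2.36, 1.97 and 1.57 CPM (log2FC -2.63 ± 0.51, adjusted p = 0.0213). Egln3, the prolyl hydroxylase most strongly induced by HIF, gave 51.3, 12.8 and 34.1 CPM in WT blood and then 4.67, 4.92 and 15.1 CPM. Here 1 library overlapped, since 12 hours library 2 lay above baseline library 1b (log2FC -2.18 ± 0.58, adjusted p = 0.0446). Egln3 in αD KO blood gave 30.2, 19.2 and 13.2 CPM and then 11, 5.55 and 4.93 CPM, without overlap and just short of the threshold (log2FC -1.77 ± 0.47, adjusted p = 0.0528).

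The 5 other tested targets (Bnip3l, Vegfa, Egln1, Ero1l and P4ha1) were not called in blood. Their log2FC ran from -1.04 (Egln1, a prolyl hydroxylase) to 0.99 (Ero1l, an oxidase of the endoplasmic reticulum) in WT and from -0.92 to -0.28 in αD KO. Bnip3l, a relative of Bnip3, gave 249, 96.9 and 241 CPM in WT blood and then 239, 136 and 219 CPM, so the fall of Bnip3 had no counterpart of similar size in it. Vegfa, the vascular growth factor, gave 47.3, 21.6 and 44.7 CPM and then 21.9, 23.5 and 35.0 CPM. Over the 9 tested targets none rose and 4 fell in WT blood, where 7.75% of all genes rose and 5.75% fell. With the replicate block 1 rose (Ero1l) and 3 fell, where 18.4% of all genes were called. In αD KO blood none rose and 2 fell, where 3.75% and 4.99% of all genes did. The median log2FC of the 9 was -1.04 in WT and -0.92 in αD KO, against -0.15 and -0.14 over all genes tested.

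**Figure D3:**
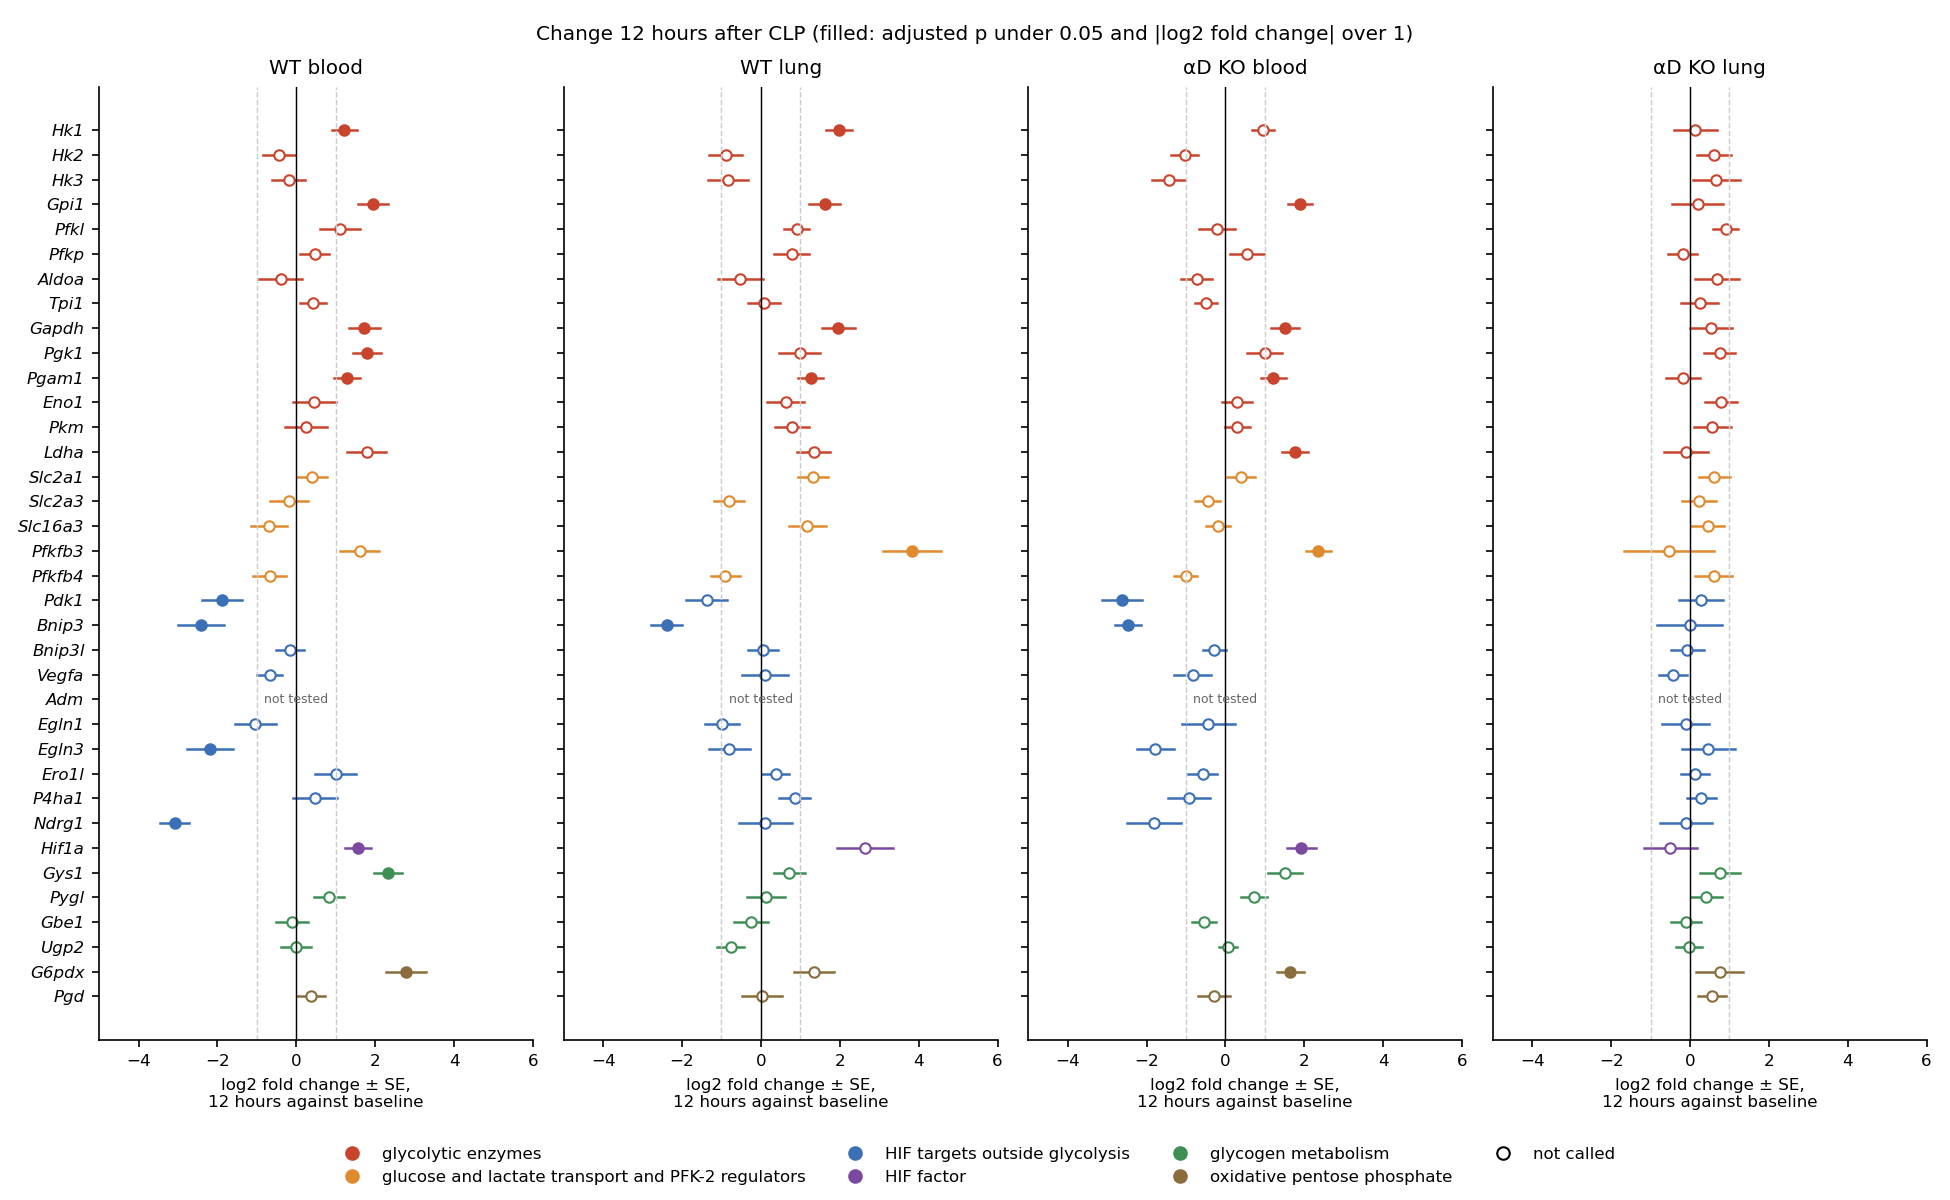
Log2 fold change with its standard error for the 35 tested genes (Adm was not tested), 12 hours after CLP against the baseline, in WT blood, WT lung, αD KO blood and αD KO lung (3 libraries against 3). Filled points were called changed and colours give the role of the gene. In WT blood the called enzymes lie to the right of 0 and the called HIF targets to the left, down to -3.09 for Ndrg1, and in αD KO lung no point is filled.

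Some of these counts are uncertain by their gene structure. Gapdh, Pgk1, Pgam1, Tpi1, Aldoa, Ldha and Pkm have processed pseudogenes, and Eno1 has the near-identical copy Eno1b, so reads that match both were lost or split by the counting of unique reads. The strand used in counting was not given, so overlapping antisense genes cannot be told apart. Gm49759, on the same strand, shares 15.3% of the exonic bases of Pkm and gave at most 184 CPM. Ikbkg shares 13.6% of the exonic bases of G6pdx and gave at most 99.1 CPM. Gm26762 shares 11.5% of those of Gpi1 and gave at most 87.5 CPM, and Gm45507 shares 22.3% of those of Bnip3 and gave at most 0.0714 CPM.

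The contrast was visible in single libraries. The mean log2 CPM of the 14 enzymes minus that of the 9 HIF targets was 2.44 to 2.57 in the WT blood baseline libraries and 4.06 to 4.98 in WT blood at 12 hours. The αD KO blood libraries had differences of 2.51 to 2.74 and then 4.06 to 4.75. Libraries 1b had lower mean levels of both lists at the baseline in blood, yet their difference between lists (2.44 and 2.51) was close to that of the other libraries.

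**Figure D4:**
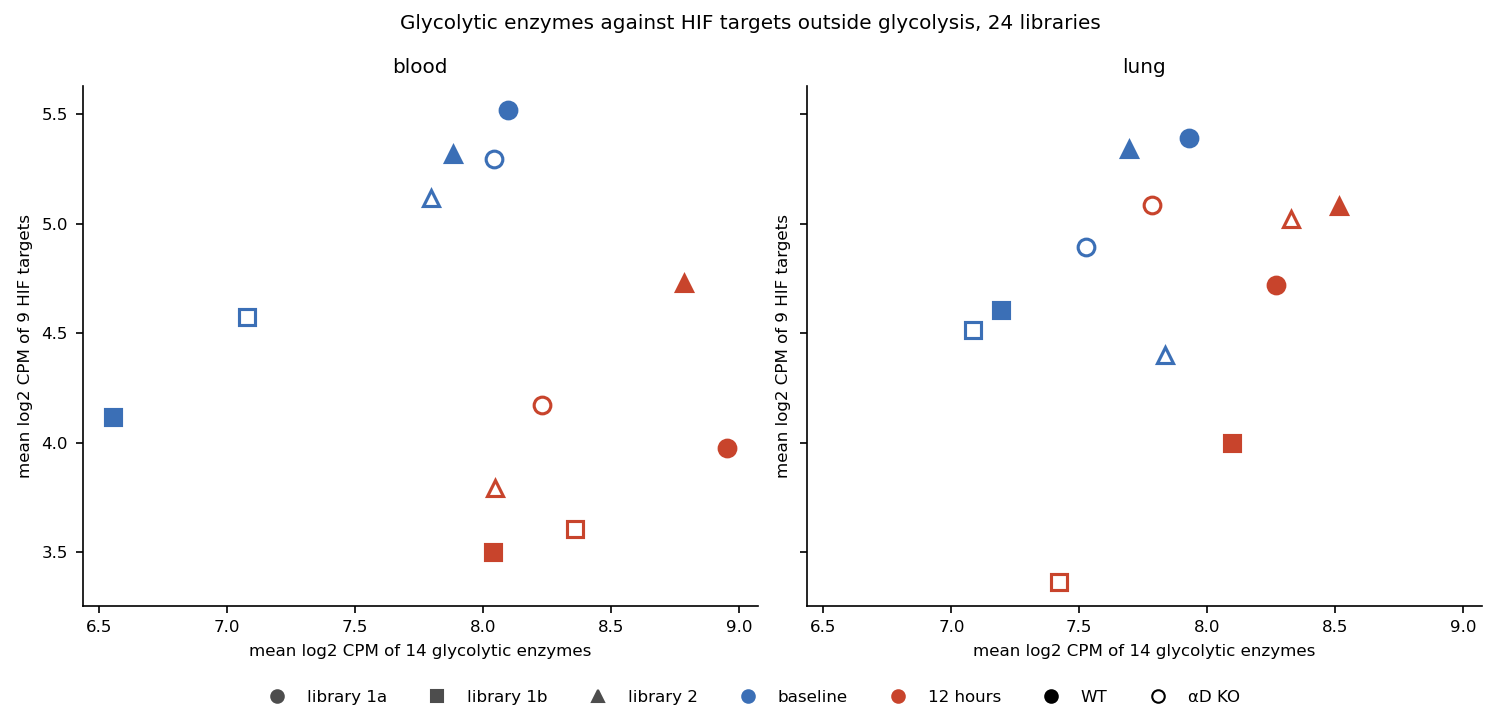
Mean log2 CPM of the 14 glycolytic enzymes (horizontal) against that of 9 HIF targets outside glycolysis (vertical, Adm left out) for each library of blood (left) and lung (right). Filled symbols are WT, open symbols αD KO, blue the baseline and red 12 hours after CLP. In blood the enzyme means were 6.55 to 8.10 at the baseline and 8.04 to 8.95 at 12 hours, the HIF target means 4.12 to 5.52 and 3.5 to 4.73, and in lung the αD KO libraries of both times mix.

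The calls in blood depended on single libraries, though the directions did not. In WT blood, edgeR called 0 of the 35 genes without baseline library 1a (12 at an unadjusted p under 0.05), 0 without baseline library 2 (14), 0 without 12 hours library 1a (11) and 0 without 12 hours library 2 (10). Over all genes these fits called 0.811%, 0.255%, 0.102% and 0.00999%. It called 12 without baseline library 1b (18.4% of all genes) and 10 without 12 hours library 1b (9.9% of all genes), the shallower files. In αD KO blood it called 0 without baseline library 1a (14 at an unadjusted p under 0.05), 5 without baseline library 1b, 2 without baseline library 2, 3 without 12 hours library 1a and 2 without 12 hours library 2, where 0.456%, 4.67%, 3.51%, 1.54% and 0.973% of all genes were called, and 10 without 12 hours library 1b (8.74% of all genes). The sign of every called gene stayed the same in every one of these fits. In WT blood the library numbers paired the groups by the criterion used, and with the replicate block 15 genes were called, against 18.4% of all genes. The block added Pfkfb3 (adjusted p = 0.0102), Ldha (0.0133), Pfkl (0.0356) and Ero1l (0.0297) and took away Pdk1 (0.051). In WT blood DESeq2 called 14 of 35 (22.8% of all genes), and edgeR with no filter called 4 of 36 (2.25% of all genes). With all 8 groups in 1 fit, edgeR called 5 in WT blood (4.12% of all genes) and 0 in αD KO blood (0.236% of all genes), where 15 had an unadjusted p under 0.05 (14.5% of all genes) and DESeq2 on the 2 groups called 12 (12.3% of all genes).

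Other measures moved with time in the same blood libraries. The summed level of 10 markers of immature neutrophils (granule and cycling genes such as Ngp and Ltf) was 65.5 to 6877 CPM in WT blood at the baseline and 65929 to 164817 CPM at 12 hours. The same sum in αD KO blood was 164 to 18622 CPM and then 23336 to 110597 CPM. Of these markers 1 of 8 tested was called higher in WT blood (median log2FC 3.27) and 0 of 7 in αD KO blood (median log2FC 1.52). The 7 B cell markers summed to 267 to 1212 CPM in WT blood and then 42.0 to 231 CPM, and in αD KO blood to 321 to 1351 CPM and then 37.5 to 136 CPM. The 6 platelet markers went from 40.5 to 140 CPM to 5.50 to 30.3 CPM in WT blood and from 26.5 to 666 CPM to 4.84 to 42.2 CPM in αD KO blood. All 7 B cell markers had counts in at least 10 of the 12 blood libraries, and all 6 platelet markers in 12 of 12. Of the B cell markers 1 of 7 was called lower in WT blood and 3 of 7 in αD KO blood. Of the platelet markers 3 of 6 and 2 of 6 were called lower. The 9 T and NK cell markers summed to 19.2 to 29.6 CPM and then 14.4 to 16.4 CPM in WT blood, without overlap, where 0 of 5 tested were called, and to 15.1 to 326 CPM and then 10.2 to 18.8 CPM in αD KO blood, where 2 of 8 were called lower (median log2FC -5.11). The 6 erythroid markers summed to 254 to 3847 CPM and then 380 to 2449 CPM in WT blood (0 of 6 called) and to 1815 to 9089 CPM and then 27.4 to 5893 CPM in αD KO blood (1 of 6 called lower). The 12 monocyte and macrophage markers summed to 560 to 1575 CPM and then 610 to 1215 CPM in WT blood, where 1 of 10 tested was called higher and 3 lower (median log2FC -1.89). Those of αD KO blood summed to 770 to 1973 CPM and then 642 to 787 CPM, where 0 of 11 were called higher and 5 lower (median log2FC -2.83). The 8 neutrophil markers summed to 29133 to 48383 CPM and then 107044 to 196626 CPM in WT blood, where 5 were called higher and 1 lower, and to 35003 to 58355 CPM and then 114327 to 142519 CPM in αD KO blood, where 3 were called higher and 1 lower. The 10 most abundant genes took 11.5% to 12.8% of the counts and then 23.2% to 28.1% in WT blood. The mitochondrial share there was 0.0288% to 0.0818% and then 0.112% to 0.155%. The share of the 10 most abundant genes in αD KO blood was 10.4% to 13.5% and then 21.6% to 22.6%, while the mitochondrial share overlapped between times, at 0.0534%, 0.0655% and 0.219% and then 0.122%, 0.0465% and 0.155%. The part of these measures in the changes above was not tested.

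In lung neutrophils of WT mice 4 of 14 enzymes rose (Hk1, Gpi1, Gapdh and Pgam1) and 1 of 9 tested HIF targets fell (Bnip3). Of 35 genes 6 were called, against 9.02% of all genes, with 5 higher (5.24% of all genes) and 1 lower (3.78% of all genes). Pfkfb3 had the largest log2FC. It gave 41.8, 32.5 and 69.3 CPM at the baseline and 1354, 125 and 836 CPM at 12 hours (log2FC 3.83 ± 0.73, adjusted p = 0.0213). Library 1b at 12 hours was far below the other two and still above every baseline library. Hk1 gave 53.5, 45.7 and 53.7 CPM and then 289, 116 and 244 CPM (log2FC 1.98 ± 0.32, adjusted p = 0.0141).

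Gapdh in WT lung gave 769, 594 and 623 CPM at the baseline and 1996, 2421 and 3392 CPM at 12 hours (log2FC 1.96 ± 0.42, adjusted p = 0.0295). Gpi1 gave 821, 509 and 538 CPM and then 1796, 1799 and 2170 CPM (log2FC 1.61 ± 0.40, adjusted p = 0.0447), and Pgam1 gave 63.7, 43.7 and 44.9 CPM and then 116, 119 and 131 CPM (log2FC 1.26 ± 0.32, adjusted p = 0.0459). Library 1b was not low for these 3 genes, and no library overlapped between times. Ldha also separated completely, with 625, 309 and 601 CPM and then 1955, 896 and 1222 CPM, but was not called (log2FC 1.34 ± 0.42, adjusted p = 0.0843). Over the 14 enzymes 4 rose and none fell, where 5.24% of all genes rose and 3.78% fell. The median log2FC of the enzymes was 0.85, against 0.03 over all genes tested.

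Hif1a varied widely between the WT lung libraries at 12 hours. It gave 82.7, 63.4 and 108 CPM at the baseline and 1261, 108 and 432 CPM at 12 hours, with library 1b of the 12 hours group at the level of the highest baseline library (log2FC 2.64 ± 0.70, adjusted p = 0.0538). DESeq2 called it higher (adjusted p = 0.00117), as did edgeR with no filter, with all 8 groups in 1 fit and with summed files, but not with the replicate block (adjusted p = 0.0726). Ndrg1 was split between the same libraries, with 153, 143 and 199 CPM at the baseline and 311, 23.3 and 275 CPM at 12 hours. Libraries 1a and 2 were above the baseline and library 1b was far below it, and the log2FC was 0.11 ± 0.67 (adjusted p = 0.945). Vegfa gave 48.6, 51.9 and 81.5 CPM and then 117, 13.1 and 91.5 CPM, again with library 1b apart (log2FC 0.10 ± 0.58, adjusted p = 0.937).

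Bnip3 was the single gene of the 36 that the main test called lower in WT lung, from 197, 80.7 and 173 CPM to 28.1, 21.4 and 39.2 CPM (log2FC -2.39 ± 0.39, adjusted p = 0.0142). Pdk1 gave 8.94, 4.70 and 8.14 CPM and then 1.48, 2.97 and 3.84 CPM, lower in 3 of 3 libraries but not called (log2FC -1.37 ± 0.53, adjusted p = 0.14). Egln3 gave 32.9, 10.7 and 22.4 CPM and then 6.63, 13.6 and 16.8 CPM, with overlap (log2FC -0.80 ± 0.52, adjusted p = 0.366). G6pdx gave 443, 247 and 364 CPM and then 526, 1164 and 841 CPM without overlap (log2FC 1.34 ± 0.51, adjusted p = 0.137), and Gys1 gave 27.3, 19.3 and 23.0 CPM and then 24.5, 46.2 and 40.6 CPM (log2FC 0.72 ± 0.40, adjusted p = 0.295). The 9 tested HIF targets had a median log2FC of 0.05, against 0.03 over all genes, and this median ran from -0.43 to 0.14 over 13 alternatives, of which 6 kept its sign. The library difference between the lists was 2.35 to 2.59 at the baseline and 3.43 to 4.10 at 12 hours.

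DESeq2 called 9 of 35 genes in WT lung, against 17.6% of all genes, adding Hif1a, Ldha and Slc2a1 to the 6 of edgeR (adjusted p = 0.00117, 0.0135 and 0.0145). The count of called genes depended on every library of WT lung. Without 12 hours library 1b 13 of 35 genes were called, against 25.3% of all genes. In edgeR 0 were called without baseline library 1a (12 at an unadjusted p under 0.05), 0 without baseline library 2 (7), 0 without 12 hours library 1a (12), 0 without 12 hours library 2 (10) and 2 without baseline library 1b, where 0.0%, 0.0%, 0.0%, 0.122% and 5.03% of all genes were called. All signs of the 6 called genes were kept. Without 12 hours library 1b, Hif1a, Ldha, Slc2a1, Slc16a3 and Pfkp joined the genes that rose and Hk3, Pfkfb4 and Pdk1 those that fell, while Pgam1 was not called. B cell markers in WT lung summed to 420 to 782 CPM at the baseline and 35.2 to 85.0 CPM at 12 hours, and immature neutrophil markers to 164 to 1398 CPM and then 18480 to 56895 CPM. Of the B cell markers 4 of 7 tested were called lower, and of the immature neutrophil markers 4 of 7 tested were called higher. The 13 lung structural markers summed to 69.6 to 215 CPM and then 184 to 402 CPM, and 1 of 13 was called higher. Neutrophil markers summed to 37408 to 52339 CPM and then 75209 to 138005 CPM, where 1 of 8 was called higher and 1 lower. Monocyte and macrophage markers summed to 779 to 1346 CPM and then 703 to 1061 CPM, where 1 of 9 tested was called higher and 3 lower. The 10 most abundant genes took 10.9% to 12.0% of the counts and then 16.1% to 24.6%, and the mitochondrial share was 0.150% to 0.268% and then 0.129% to 0.158%. The part of these measures in the WT lung changes was not tested.

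Genes for the same step were also compared with each other, as ratios with no test. Levels of different genes were compared per exonic length. Hk3, the hexokinase typical of myeloid cells, was the most abundant hexokinase in all 24 libraries, and the ratio of Hk1 to Hk3 was 0.0462, 0.0575 and 0.0436 in WT blood at the baseline and 0.0944, 0.176 and 0.124 at 12 hours. In αD KO blood the Hk1 to Hk3 ratio went from 0.0492, 0.0542 and 0.0688 to 0.401, 0.226 and 0.347, and in WT lung from 0.0367, 0.0451 and 0.0407 to 0.520, 0.116 and 0.561. No 12 hours library of these 3 groups overlapped its baseline. The counts of Hk3 were 735, 259 and 720 CPM and then 743, 372 and 584 CPM in WT blood, 689, 390 and 433 CPM and then 155, 319 and 147 CPM in αD KO blood, and 630, 437 and 569 CPM and then 240, 429 and 188 CPM in WT lung. Hk3 was lower at 12 hours in every library of the last 2, but it was called in none by the main test (log2FC -0.20 ± 0.41, -1.44 ± 0.42 and -0.84 ± 0.51; adjusted p = 0.781, 0.0683 and 0.337). Hk3 in αD KO blood was called lower by DESeq2 (adjusted p = 0.0404), with the replicate block (adjusted p = 0.0374) and with no filter, and in WT lung without 12 hours library 1b. Hk2, the hexokinase often linked to HIF, gave 41.4, 18.2 and 44.5 CPM and then 41.3, 12.7 and 35.7 CPM in WT blood, and 45.7, 29.3 and 50.9 CPM and then 43.1, 10.5 and 20.3 CPM in WT lung. Hk1 was the one hexokinase called, and Hk2 was called in none of these comparisons.

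**Figure D5:**
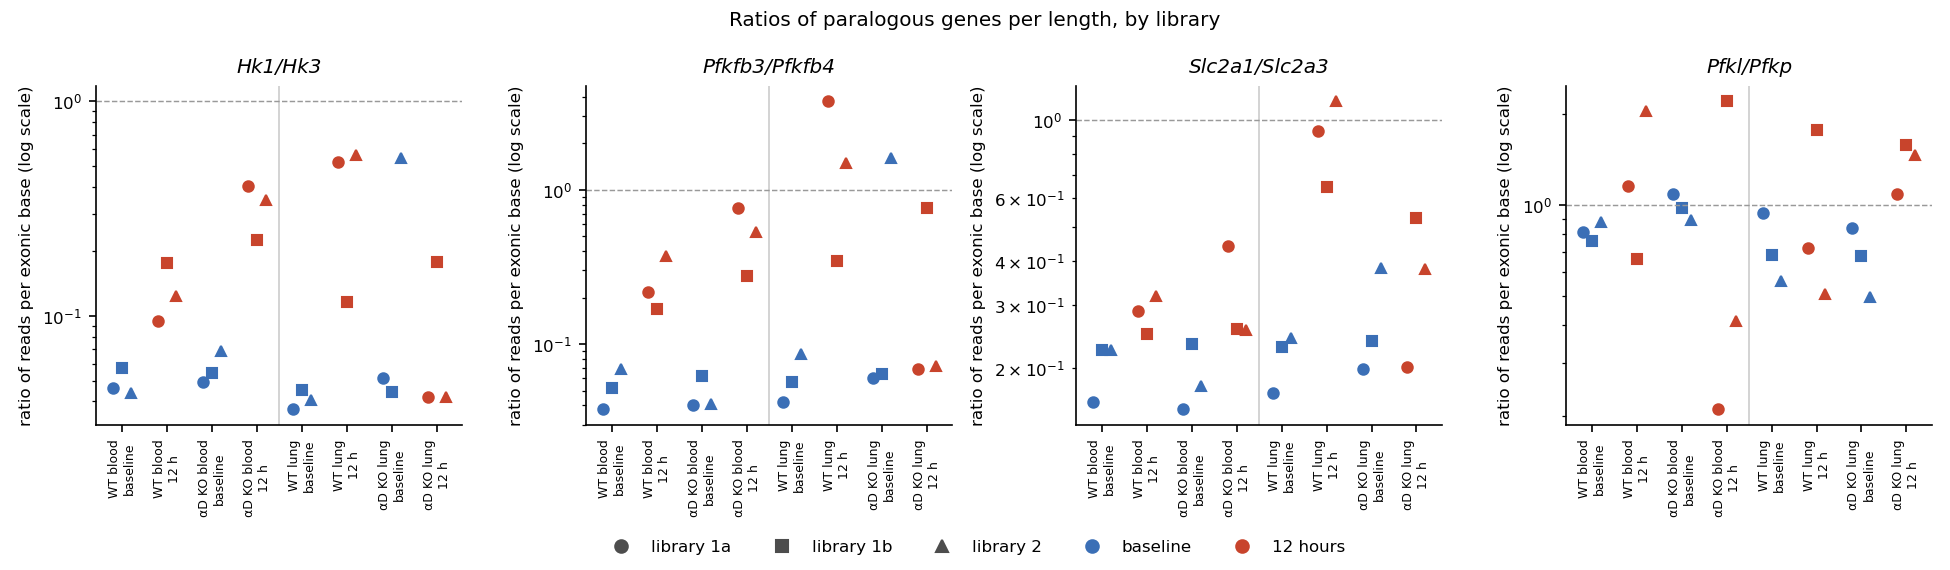
Ratio of reads per exonic base (log axis) for Hk1 to Hk3, Pfkfb3 to Pfkfb4, Slc2a1 to Slc2a3 and Pfkl to Pfkp in each library, by group. Symbols mark libraries 1a, 1b and 2, blue is the baseline, red is 12 hours after CLP, and the dashed line is a ratio of 1. Pfkfb3 to Pfkfb4 passed 1 in WT lung 12 hours libraries 1a (3.73) and 2 (1.5) and in αD KO lung baseline library 2 (1.60).

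Pfkfb4, the second phosphofructokinase-2 gene here, gave 712, 232 and 643 CPM and then 324, 344 and 433 CPM in WT blood, 693, 398 and 521 CPM and then 245, 334 and 331 CPM in αD KO blood, and 636, 369 and 516 CPM and then 234, 233 and 360 CPM in WT lung. None of the 3 changes was called (log2FC -0.68 ± 0.41, -1.01 ± 0.29 and -0.91 ± 0.37; adjusted p = 0.326, 0.065 and 0.162). The ratio of Pfkfb3 to Pfkfb4 was 0.0377 to 0.0866 in the WT baseline libraries of both tissues. At 12 hours it was 0.218, 0.170 and 0.370 in WT blood, 0.757, 0.275 and 0.533 in αD KO blood and 3.73, 0.346 and 1.5 in WT lung, so that in 2 lung libraries Pfkfb3 was the more abundant of the pair.

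Glucose enters by Slc2a1 (GLUT1) and Slc2a3 (GLUT3), and Slc2a3 was the more abundant at every baseline. Slc2a1 gave 155, 49.8 and 137 CPM and then 176, 125 and 208 CPM in WT blood and 119, 82.9 and 131 CPM and then 370, 138 and 393 CPM in WT lung. Slc2a3 gave 2001, 458 and 1261 CPM and then 1261, 1039 and 1349 CPM in WT blood and 1445, 747 and 1113 CPM and then 820, 443 and 721 CPM in WT lung. Neither was called by edgeR (in lung, log2FC 1.33 ± 0.38 with adjusted p = 0.0633 for Slc2a1 and -0.80 ± 0.38 with adjusted p = 0.225 for Slc2a3). DESeq2 called Slc2a1 higher in WT lung (adjusted p = 0.0145), as did edgeR with libraries 1a and 2 alone (0.00314). The ratio of Slc2a1 to Slc2a3 was 0.170 to 0.243 in WT lung at the baseline and 0.932, 0.645 and 1.13 at 12 hours, against 0.249 to 0.318 in WT blood at 12 hours. Slc16a3, which exports lactate, gave 245, 227 and 453 CPM and then 748, 320 and 1206 CPM in WT lung (log2FC 1.18 ± 0.48, adjusted p = 0.158), and 717, 177 and 430 CPM and then 283, 241 and 396 CPM in WT blood (log2FC -0.69 ± 0.46, adjusted p = 0.369). The phosphofructokinase genes Pfkl and Pfkp overlapped between times in blood, and their ratio spread from 0.211 to 2.19 in αD KO blood at 12 hours.

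Lung and blood were then compared directly in WT. At the baseline edgeR called 0 of 35 genes (0.0% of all genes), with 1 at an unadjusted p under 0.05 (2.54% of all genes), and DESeq2 called 0 (0.317% of all genes). The one was Vegfa, at 48.6, 51.9 and 81.5 CPM in lung and 47.3, 21.6 and 44.7 CPM in blood (log2FC 0.62 ± 0.26). At 12 hours edgeR called 0 of 35 (0.0442% of all genes) with 9 at an unadjusted p under 0.05 (18.1% of all genes), and DESeq2 called 5 (7.23% of all genes). Those 5 were Pfkfb3, Slc16a3 and Ndrg1, higher in lung, and G6pdx and Gys1, lower in lung. G6pdx gave 3702, 2046 and 2901 CPM in blood and 526, 1164 and 841 CPM in lung at 12 hours, and Gys1 gave 163, 112 and 108 CPM in blood and 24.5, 46.2 and 40.6 CPM in lung. Neither pair of groups overlapped (edgeR log2FC -1.51 ± 0.52 with adjusted p = 0.198 for G6pdx and -1.57 ± 0.44 with adjusted p = 0.157 for Gys1). In this comparison 7 of 35 genes were wholly lower in lung, against 16.3% of all genes.

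Ndrg1 at 12 hours gave 26.0, 14.6 and 23.9 CPM in blood and 311, 23.3 and 275 CPM in lung, and library 1b of lung lay within the blood values (edgeR log2FC 3.16 ± 0.70, adjusted p = 0.121). Without that library 11 of 35 genes were called between tissues, against 20.2% of all genes. Whether the response to CLP differed between tissues was tested as an interaction in WT. EdgeR called 0 of 35 (0.0% of all genes) with 5 at an unadjusted p under 0.05 (5.49% of all genes). DESeq2 called 1 (0.657% of all genes), which was Ndrg1. The edgeR interaction was 3.10 ± 0.92 on the log2 scale for Ndrg1 (adjusted p = 0.876), -1.63 ± 0.72 for G6pdx and -1.76 ± 0.52 for Gys1 (adjusted p = 0.876 for both). A difference between tissues in the CLP response of these genes was thus not shown by the main test.

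Between genotypes edgeR called none of the 36 genes in any of 4 comparisons. In blood at the baseline 0 of 36 were called (0.0115% of all genes), 0 had an unadjusted p under 0.05 (0.709% of all genes), and DESeq2 called 0 (0.0118% of all genes). In lung at the baseline 0 of 36 were called (0.0% of all genes), 1 had an unadjusted p under 0.05 (1.86% of all genes), and DESeq2 called 0 (0.0163% of all genes). In blood at 12 hours 0 of 35 were called (0.0% of all genes), 4 had an unadjusted p under 0.05 (4.01% of all genes), and DESeq2 called 0 (0.121% of all genes). In lung at 12 hours 0 of 35 were called (0.0% of all genes), 4 had an unadjusted p under 0.05 (8.29% of all genes), and DESeq2 called 0 (1.4% of all genes).

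In blood at 12 hours the 4 genes were Hk3, Ero1l, G6pdx and Tpi1, all lower in αD KO. Hk3 gave 743, 372 and 584 CPM in WT and 155, 319 and 147 CPM in αD KO (log2FC -1.35 ± 0.42), and G6pdx gave 3702, 2046 and 2901 CPM in WT and 1444, 1836 and 1554 CPM in αD KO (log2FC -0.79 ± 0.29). In both the WT libraries lay above all αD KO libraries, and the adjusted p was 0.962 for each. Such a separation held for 3 of 35 genes, against 4.55% of all genes. In lung at 12 hours the 4 genes were Pfkfb3, Hif1a, Hk1 and Pgam1. Hif1a gave 1261, 108 and 432 CPM in WT lung and 82.9, 163 and 94.0 CPM in αD KO lung (log2FC -2.08 ± 0.79), and Pfkfb3 gave 1354, 125 and 836 CPM and 57.2, 238 and 84.7 CPM (log2FC -2.24 ± 0.88). Both pairs of groups overlapped. Hk1 gave 289, 116 and 244 CPM in WT lung and 51.3, 103 and 73.9 CPM in αD KO lung (log2FC -1.25 ± 0.45), and Pgam1 gave 116, 119 and 131 CPM and 62.3, 56.7 and 61.4 CPM (log2FC -0.86 ± 0.33). For these every αD KO library lay below every WT library, as it also did for Gpi1, Gapdh, Ldha, Ero1l and P4ha1. These are 7 of 35 genes with every αD KO library below, against 5.48% of all genes (0.0% of all genes were called), and 2 of the 3 αD KO libraries lay near the baseline on the lung axis. The adjusted p was 0.598 for each of the 4 genes.

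The αD KO lung values need their libraries beside them, since 3 of 6 lay near the other time on the lung axis. Whether their labels or files were exchanged cannot be told from the counts, and every αD KO lung value depends on it. Hif1a gave 108, 65.6 and 376 CPM at the αD KO lung baseline and 82.9, 163 and 94.0 CPM at 12 hours, Pfkfb3 gave 39.5, 30.6 and 594 CPM and then 57.2, 238 and 84.7 CPM, and Bnip3 gave 130, 77.2 and 26.3 CPM and then 142, 10.9 and 91.9 CPM. Baseline library 2 and 12 hours library 1b were the highest for Hif1a and Pfkfb3 and the lowest for Bnip3, on the side of the WT lung libraries at 12 hours. For these 3 genes the remaining 4 libraries were close to the WT baseline. B cell markers summed to 54.0 and 44.1 CPM in these 2 libraries and to 279 to 520 CPM in the other 4. Immature neutrophil markers did not separate them, with 15801, 198 and 58743 CPM at the baseline and 7272, 13558 and 9991 CPM at 12 hours, against 164 to 1398 CPM in the WT lung baseline. The library difference between enzymes and HIF targets was 2.63, 2.57 and 3.43 at the baseline and 2.70, 4.06 and 3.30 at 12 hours. By this measure 12 hours library 2 lay nearer WT lung at 12 hours (3.43 to 4.10) than WT lung at the baseline (2.35 to 2.59). EdgeR called 0 of 35 genes between times in αD KO lung (0.0% of all genes) with 1 at an unadjusted p under 0.05 (0.401% of all genes), and DESeq2 called 0 (0.0% of all genes). The median log2FC was 0.55 for the enzymes and -0.0048 for the HIF targets, against -0.05 over all genes tested. The one was Pfkl, at 25.4, 17.9 and 27.1 CPM and then 40.0, 29.0 and 59.5 CPM (log2FC 0.90 ± 0.32, adjusted p = 1.00). Leaving out baseline library 2 and 12 hours libraries 1a and 2, with all 8 groups in 1 fit, edgeR also called 0 (0.00609% of all genes), with 7 of 36 at an unadjusted p under 0.05 (2.71% of all genes), and the 2 medians became 0.35 and -1.04. That fit rests on 1 αD KO lung library at 12 hours, assumed to vary like the other groups.

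The choice of libraries changed the genotype comparison in lung at 12 hours. With libraries 1a and 2 alone, 10 of 35 genes were called, against 30.1% of all genes. Pfkfb3, Hif1a, Hk1, Pfkp, Gpi1 and Ldha were lower in αD KO and Hk3, Bnip3, Aldoa and Pfkfb4 were higher. The αD KO libraries in that fit are the ones that stood near the WT baseline on the lung axis. With all libraries, the fit of 8 groups called 0 of 36 (0.00737% of all genes) with 6 at an unadjusted p under 0.05 (9.0% of all genes). The same fit without the 3 αD KO lung libraries apart called 0 (0.0% of all genes) with 2 at an unadjusted p under 0.05 (1.11% of all genes). These fits differ from that of libraries 1a and 2 alone in form as well as in libraries.

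Whether the change after CLP differed between genotypes was tested as an interaction. In blood edgeR called 0 of 36 (0.0% of all genes), 0 had an unadjusted p under 0.05 (1.17% of all genes), and DESeq2 called 0 (0.00232% of all genes). In lung edgeR called 0 of 36 (0.0% of all genes) with 8 at an unadjusted p under 0.05 (10.5% of all genes), and DESeq2 called 0 (2.7% of all genes). The 8 were Pfkfb3, Hif1a, Hk1, Gapdh and Pgam1, with a negative difference (αD KO change minus WT change), and Hk2, Pfkfb4 and Bnip3, with a positive one. The lung difference was -4.40 ± 1.51 on the log2 scale for Pfkfb3 and -3.16 ± 1.05 for Hif1a (adjusted p = 0.41 for both). Without αD KO lung baseline library 2 and 12 hours libraries 1a and 2, in the fit of 8 groups, the difference was -1.04 ± 1.19 for Pfkfb3 and -1.73 ± 1.18 for Hif1a, and none of the 36 had an unadjusted p under 0.05 (0.286% of all genes did). That fit has 1 αD KO lung library at 12 hours.

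Other genes of these paths were taken from lists chosen by function. Of 26 tested other genes of glycolysis and pyruvate in WT blood, 2 rose and 2 fell, where 7.75% of all genes rose and 5.75% fell. Adpgk, an ADP-dependent glucokinase, gave 104, 14.7 and 32.4 CPM and then 1003, 794 and 571 CPM (log2FC 3.83 ± 0.71, adjusted p = 0.0149), a larger change than that of any hexokinase. Pdk3 gave 14.7, 2.44 and 15.5 CPM and then 108, 47.7 and 78.0 CPM (log2FC 2.65 ± 0.57, adjusted p = 0.0233). Pdk3 encodes a kinase of the same target as Pdk1, and it rose while Pdk1 fell. Slc16a7, a monocarboxylate transporter, and Gpd1l, a relative of glycerol-3-phosphate dehydrogenase, fell (log2FC -2.91 ± 0.57 and -1.63 ± 0.30). Adpgk and Pdk3 rose in WT lung too, from 27.5, 11.8 and 43.3 CPM to 383, 438 and 297 CPM for Adpgk (log2FC 3.8 ± 0.57, adjusted p = 0.0103) and with a log2FC of 1.93 ± 0.42 for Pdk3 (adjusted p = 0.0295), and of 26 tested genes these 2 rose and Gpd1l fell, where 5.24% and 3.78% of all genes did. In αD KO blood 1 of 27 rose (Gpd2) and 2 fell (Slc16a7 and Gpd1l), where 3.75% and 4.99% of all genes did. There Adpgk varied widely at the baseline, at 323, 17.3 and 221 CPM, and was not called.

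Among the other glycogen genes, Gyg, glycogenin, which starts each glycogen particle, gave 31.3, 13.7 and 30.9 CPM in WT blood and then 263, 128 and 205 CPM (log2FC 2.77 ± 0.36, adjusted p = 0.00449). Gyg also rose in WT lung and in αD KO blood (log2FC 2.27 ± 0.43 and 2.09 ± 0.43; adjusted p = 0.0209 and 0.027). Gaa, the lysosomal glucosidase, fell in blood of both genotypes. Of 9 other pentose phosphate genes in WT blood Tkt and Rpe rose (log2FC 1.71 ± 0.44 and 1.83 ± 0.29) and Taldo1, the transaldolase, fell (log2FC -1.64 ± 0.42), where 7.75% of all genes rose and 5.75% fell. In αD KO blood 1 of the 9 fell (Prps2), where 4.99% of all genes did, and in WT lung edgeR called none, where 9.02% of all genes were called. Of 5 tested genes of gluconeogenesis edgeR called none in blood or lung, too few genes to set against shares of 13.5% in WT blood, 9.02% in WT lung and 8.75% in αD KO blood over all genes.

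Among the HIF regulators 1 of 11 tested rose in WT lung, where 5.24% of all genes did, and 0 of 9 were called in WT blood or in αD KO blood, where 13.5% and 8.75% of all genes were. It was the hydroxylase Egln2, at 42.5, 27.1 and 40.1 CPM and then 558, 34.9 and 564 CPM (log2FC 3.20 ± 0.79, adjusted p = 0.0433), again with library 1b near the baseline. Arnt, the partner of HIF-1α, Vhl and Hif1an had log2FC of -0.05 to 0.58 in WT blood and lung and none was called. Epas1, which encodes HIF-2α, gave at most 5.73 CPM in blood and 8.75 to 54.4 CPM in lung, and between times in WT it was tested in lung only (log2FC 0.46 ± 0.59, adjusted p = 0.682). In WT at 12 hours Epas1 was called higher in lung than in blood (log2FC 7.46 ± 0.86, adjusted p = 0.0484), where 0.0442% of all genes were called. Epas1 was low in blood and entered this test through its lung counts, so the size of this fold is uncertain. Without WT lung 12 hours library 2, or without any 1 of the WT blood 12 hours libraries, edgeR called 0.0% of all genes, so this call was lost. Endothelial cells of the lung also express Epas1. Lung structural markers, endothelial ones among them, summed to 184 to 402 CPM in these lung libraries and 75.4 to 89.4 CPM in these blood libraries, and their part in this difference was not tested. Of 20 tested other HIF targets in WT blood 1 rose and 3 fell, where 7.75% of all genes rose and 5.75% fell. Nos2, the inducible nitric oxide synthase, which inflammatory signals also induce, gave 0.399, 2.81 and 0.716 CPM and then 229, 80.3 and 194 CPM (log2FC 6.82 ± 0.87, adjusted p = 0.0042), and Ankrd37, Higd1a and Cxcr4 fell (log2FC -2.34 ± 0.55, -1.48 ± 0.40 and -2.55 ± 0.38). In WT lung 5 of 22 rose (among them Nos2, Edn1, Ddit4 and Bhlhe40, by size) and none fell, where 5.24% and 3.78% of all genes did, and in αD KO blood 2 of 22 rose (Nos2 and Edn1) and 2 fell (Ankrd37 and Cxcr4), where 3.75% and 4.99% of all genes did. The median log2FC of this list was -0.41 in WT blood, -0.58 in αD KO blood and 0.72 in WT lung, against -0.15, -0.14 and 0.03 over all genes.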

How the data were processed

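RNA of sorted neutrophils was sequenced from 16 samples in 24 count files (3 libraries in each of 8 groups), with SMART-Seq v4 and Nextera XT libraries. Per the study's methods, the authors trimmed reads with Trimmomatic 0.36, aligned them to GRCm38 with STAR 2.5.2b and deposited raw counts of unique exonic reads per Ensembl gene; the counting tool, the strand and the animals behind each library were not given in the sources used here. Each file was taken as a library. Files 1a and 1b of a sample differed beyond counting noise (chi-square per degree of freedom 63.5 to 328), as separate preparations of 1 sample also can, so this does not show that they are independent replicates, and a fit with the 2 files summed (2 samples a group) was an alternative.

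Counts were tested with the edgeR 4.0.16 quasi-likelihood F test (R 4.3.3, limma 3.58.1; TMM normalization and filterByExpr within the groups compared), two-sided, in 13 comparisons. A gene was called at a Benjamini-Hochberg adjusted p under 0.05 over all genes tested and an absolute log2 fold change over 1. DESeq2 1.42.0 was an alternative. CPM used TMM over all 24 libraries, and RPKM divided CPM by exonic length. Python 3.11.15 (scipy 1.17.1, numpy 2.4.6, pandas 2.3.3) made the tables and figures. The scripts were tested on simulated data. The 36 genes and the wider lists were chosen with earlier results of these data known. All 36 genes are named, those called are given by library, and up to 4 called genes of each wider list are named by size. Alternatives were RLE scaling, no filter, all 8 groups in 1 fit, summed files, a replicate block, leaving out lung libraries that stood apart, and 96 fits without 1 library each.

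Library numbers were taken to pair 2 groups where the deviations from the group means correlated above 0.1 for every number. In WT blood the correlations were 0.459, 0.591 and 0.117 for libraries 1a, 1b and 2. They were also all above 0.1 in αD KO lung between times, in WT lung against blood at both times, and between genotypes in blood at the baseline. The pairing comes from the data alone, since the labels do not say that a number marks a shared batch. Libraries held 5753476 to 29984954 counts, and depth sets the precision of low genes such as Pdk1 and Adm. Some results of the other glycogen genes are not reported here.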

Additional observations from a re-analysis of the deposited data

How the results depend on the processing

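The 14 genes called between times gave 27 calls in WT blood, WT lung and αD KO blood, and none of the alternatives run reversed their sign. DESeq2 and RLE scaling each kept 27 of the 27 calls, summed files, the replicate block and libraries 1a and 2 alone each kept 23, no filter kept 15 and all 8 groups in 1 fit kept 8. Of 162 values with 1 library left out, 48 stayed called and 114 did not. Shares of all genes called in the same fit stand in brackets. In WT blood, 4 genes were called with no filter (2.25%) and 5 with all 8 groups (4.12%). In αD KO blood, 0 were called with all 8 groups (0.236%). In WT lung, 3 were called with the replicate block (6.01%), where the pairing criterion was not met. Without 1 library each, the counts ran from 0 to 12 in WT blood, 0 to 13 in WT lung, 0 to 10 in αD KO blood, 0 to 11 for WT lung against blood at 12 hours and 0 to 1 for tissue by time in WT. For WT lung against blood at 12 hours, 3 genes were called with no filter (1.59%), 5 with DESeq2 (7.23%) and 3 with summed files (4.47%), and for tissue by time DESeq2 called 1 (0.657%). Using libraries 1a and 2 alone was chosen after seeing the data. It called 15 genes in WT lung (37.2%), 11 for WT lung against blood at 12 hours (28.2%), 2 between genotypes in blood (0.224%) and 10 in lung at 12 hours (30.1%), 5 for tissue by time (7.41%) and 6 for genotype by time in lung (13.2%). Beyond WT blood (15 genes, 18.4%) and WT lung (3 genes), the replicate block changed no count by more than 1.5 times. The causes of these shifts were not tested.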
